A study of Mus musculus with 6 samples.

Results

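The Hedgehog pathway genes described here are the ligands Ihh and Dhh, the receptor Ptch1, the transducer Smo, the transcription factors Gli1, Gli2 and Gli3, and the ligand-binding inhibitor Hhip. These 8 genes were listed by name, with earlier results of these data known, and were read from a single-cell table of 24077 genes and from section tables of 30828 genes. Uteri of CD-1 mice were collected at 12 months of age after subcutaneous injection of corn oil (CO) or of diethylstilbestrol (DES, a synthetic estrogen) at 1 mg/kg/day on neonatal days 1 to 5. One single-cell library pooled 2 CO mice and the other pooled 4 DES mice, whereas spatial transcriptomics used 2 CO and 2 DES sections, named A and B, with 1 mouse each. CO mice were taken in estrus and DES mice were in persistent estrus. The DES sections were chosen to hold uterine adenocarcinoma.

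Hedgehog ligands are secreted proteins that bind PTCH1 on a nearby cell, which releases SMO from inhibition and lets GLI proteins change transcription. GLI1 acts as an activator, GLI3 acts largely as a repressor, and Ptch1, Gli1 and Hhip are textbook targets of the pathway. In the mouse uterus, epithelial IHH is known as a progesterone-regulated signal to the stroma. In GENCODE M21 on GRCm38, Ihh lies on the minus strand of chromosome 1 at 74945315 to 74951672 and overlaps no other gene. Dhh overlaps Rhebl1 on the same strand, as do Ptch1 and A930032L01Rik, Smo and Gm13717, and Gli3 and Gm48343, so reads of these pairs may not be fully separable. Gli1 overlaps Arhgap9 on the opposite strand.

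The upstream sequence is shown for Ihh, the ligand whose epithelial pattern leads the results, and for Gli2, the gene with the largest DES to CO difference among members tested in whole sections. Each run is the 250 bases before the RefSeq start on GRCm38.p6, read 5′ to 3′ on the minus strand, at chr1:74951673-74951922 for Ihh and chr1:119053620-119053869 for Gli2. Capitals mark the letters ACCACCC or its complement, a shortened form of the GLI consensus GACCACCCA.
Ihh: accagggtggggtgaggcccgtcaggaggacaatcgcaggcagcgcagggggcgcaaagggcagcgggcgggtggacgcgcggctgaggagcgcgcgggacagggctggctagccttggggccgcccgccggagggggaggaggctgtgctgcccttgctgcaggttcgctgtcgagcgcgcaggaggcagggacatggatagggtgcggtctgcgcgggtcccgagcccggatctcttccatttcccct
Gli2: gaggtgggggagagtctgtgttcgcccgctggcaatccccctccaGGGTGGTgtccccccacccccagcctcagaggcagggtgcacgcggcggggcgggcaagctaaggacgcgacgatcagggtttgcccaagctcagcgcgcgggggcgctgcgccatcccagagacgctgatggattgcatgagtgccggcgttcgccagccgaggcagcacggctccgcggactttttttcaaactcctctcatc
RefSeq promoters were found for 7 of the 8 genes, all except Gli1. The full consensus, searched on both strands, was in 0 of these 7 windows and in 0.225% of all 32851 promoter windows of that length. The 7-letter form was in Gli2 alone, 205 bases before its start, and in 3.92% of all windows.

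The single-cell libraries held 32387 CO and 16312 DES cells, of which 12253 and 9701 carried a cell type from the authors. Epithelial cells had a median of 23458 unique molecular identifiers (UMIs) in CO and 21900 in DES. DES stromal and endothelial cells numbered 1 and 5, so only epithelial, mesothelial, lymphoid and myeloid cells could be set side by side. Epcam stood at 1040.2 CPM in CO and 793 CPM in DES epithelium, and at 80.2 and 28.3 CPM in mesothelium. CPM is the number of UMIs of a gene in 1000000 UMIs of the group. The libraries shared 180 cell barcodes, 32 of them among annotated cells. Because each condition had 1 library, no test was made between CO and DES cells. Intervals on single cells are 95% intervals, Poisson for levels and binomial for shares and ratios. They cover the counting of UMIs or cells only.

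Ihh, the epithelial ligand, was concentrated in few CO epithelial cells. CO epithelium held 137 Ihh UMIs in 2583 cells, or 1.74 CPM (1.46 to 2.06). CO cluster 12, a group of 71 cells that the study set apart from luminal and glandular epithelium, held 86 of them, or 48.7 CPM (38.9 to 60.1). This was 62.8% of the Ihh UMIs from 2.75% of the cells. The level was 73.5 times that of all other CO epithelial clusters together, which stood at 0.662 CPM (ratio interval 51.4 to 106). The cells had been clustered with these counts, and the ratio is given as a description. An Ihh UMI was found in 34 of the 71 cells, and 19 cells had at least 2. After each cell was thinned to 3000 UMIs, 4.23% of cluster 12 cells had an Ihh UMI (0.88% to 11.9%), against 0.281% of the other CO epithelial cells. At 5000 UMIs the shares were 20% of 70 cells and 0.285% of 2457, and without thinning 47.9% and 1.31%. Each thinning was 1 random draw, so the size of the cluster 12 share depends on the depth and the draw, and it was the higher of the pair at each depth.

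**Figure D1:**
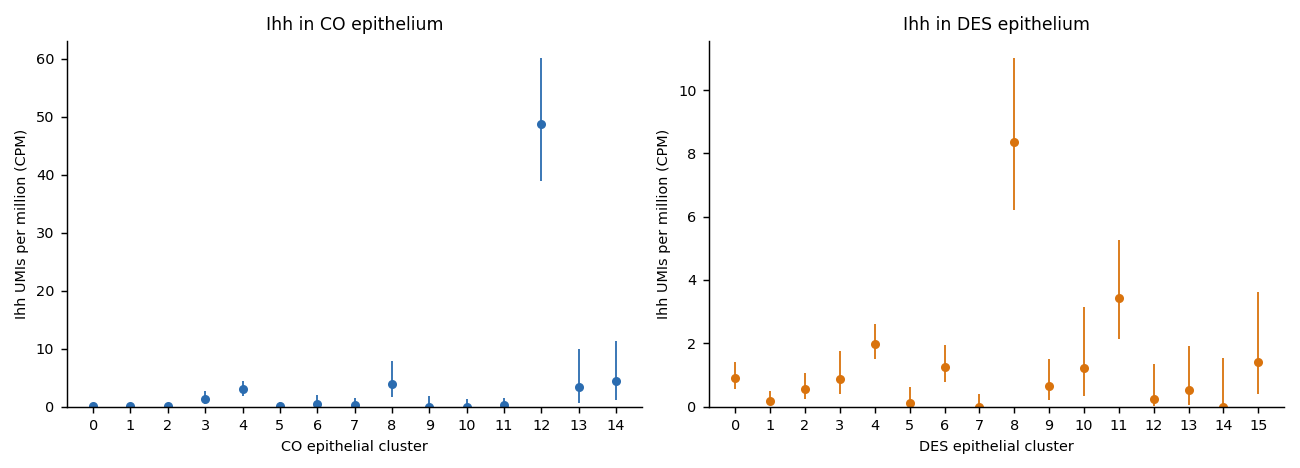
Ihh level (CPM, with 95% Poisson intervals) in each epithelial cluster of the CO library (left) and the DES library (right), on separate linear axes. CO cluster 12 stands at 48.7 CPM, above every other CO cluster, and DES cluster 8 stands highest of the DES clusters at 8.35 CPM.

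The remaining CO epithelium was not uniform. Of the 187 cells of CO cluster 4, 11 lay in integrated cluster 7, a cluster the study formed on CO and DES epithelium together, and these 11 held all 22 Ihh UMIs, whereas the other 176 held 0. The 84 CO epithelial cells in integrated clusters 6, 7, 9 and 18 held 108 Ihh UMIs, or 78.8% of the total. These 4 were grouped after their values were seen, as the integrated clusters with the highest CO Ihh levels, and 2 cells of CO cluster 12 lay outside them, in integrated cluster 1. The other 2499 cells held 29, or 0.378 CPM (0.253 to 0.543). The 4 clusters the study called glandular (3, 8, 13 and 14) stood at 2.41 CPM (1.49 to 3.69), and the luminal clusters at 0.439 CPM (0.296 to 0.627), a ratio of 5.49 (2.99 to 9.92). Cluster 4 is among the luminal clusters, and its 11 cells in integrated cluster 7 held 22 of the 30 luminal Ihh UMIs. The luminal level and this ratio thus rest largely on these 11 cells. Clusters 9 and 10 held 0 Ihh UMIs, which allows up to 1.53 and 1.09 CPM.

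DES epithelium held 227 Ihh UMIs in 5255 cells, or 1.29 CPM (1.13 to 1.47). The DES to CO ratio over all epithelium was 0.741 (0.597 to 0.923), but it turned to 2.03 (1.5 to 2.82) when CO cluster 12 and the DES basal cells were left out, a comparison chosen after the values were seen. In that comparison the levels were 1.35 CPM in DES and 0.662 CPM in CO. DES cluster 8 was highest at 8.35 CPM (6.2 to 11), followed by cluster 11 at 3.44 CPM (2.13 to 5.25) and cluster 4 at 1.99 CPM (1.49 to 2.6). The interval of cluster 8 lay above those of clusters 11 and 4, whereas those of clusters 11 and 4 overlapped. Clusters 4 and 8 together held 45.4% of DES epithelial Ihh UMIs and 18.5% of all UMIs. In integrated cluster 18, which held cells of both libraries, the 43 DES cells stood at 15.02 CPM (9.9 to 21.9). DES basal cells, defined here by Krt14 and Trp63 each being above 1 UMI, held 3 Ihh UMIs, or 0.303 CPM (0.0626 to 0.887). DES epithelial cells with an Ihh UMI numbered 173 and had 1.31 Ihh UMIs on average, against 2.53 in the positive cells of CO cluster 12.

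Outside epithelium few Ihh UMIs were found. Mesothelium held 6 UMIs in CO and 3 in DES, at 0.0722 and 0.0464 CPM, and CO stromal, Ctla2a and endothelial cells held 0. The stromal level was thus at least 6.8-fold lower than that of CO epithelium, with the group floor set at 3 UMIs. CO lymphocytes held 2 UMIs, at 0.89 CPM (0.108 to 3.21), and DES lymphocytes held 1. Ihh in CO mesothelium was 4.15% of its epithelial level, and the summed epithelial markers (Epcam and Cdh1) there were 7.5% of theirs. The source of these UMIs was not tested. In whole sections Ihh was hardly captured, with 7 and 1 UMIs in the CO sections and 4 and 4 in the DES sections, and it did not pass the filter on low counts of the section tests. Without that filter its whole-section log2 fold change was 0.13 ± 1.06 (SE), with an unadjusted edgeR p of 0.910.

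Dhh, the ligand known from Schwann and endothelial cells, had its highest level in CO endothelium, with 9 UMIs and 3.42 CPM (1.57 to 6.5) in 341 cells. CO mesothelium also held 9 UMIs, at 0.108 CPM, and CO lymphocytes held 2, at 0.89 CPM (0.108 to 3.21). Epithelium held 3 UMIs in each library. The sections held 7, 9, 7 and 6 Dhh UMIs in the order CO A, CO B, DES A and DES B, so CO and DES overlapped. The Schwann cell marker Sox10 stood at 0 in every CO cell type, but this marker alone cannot show that Schwann cells were absent.

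Ptch1, the receptor and target, was present in every CO cell type. Among CO cell types it was highest in Ctla2a cells, a group named by the authors after that gene, at 46.96 CPM (39.3 to 55.7). Ctla2a cells carried stromal markers, with Pdgfra at 213 CPM and Dpt at 184 CPM. Endothelial cells followed at 27.8 CPM (21.8 to 34.9) and stromal cells at 20.02 CPM (17.5 to 22.8). The Ctla2a to stromal ratio was 2.35 (1.88 to 2.92). The endothelial and stromal intervals overlapped, and so did those of stromal and mesothelial cells, the latter at 17.98 CPM in CO and 17.96 CPM in DES. CO epithelium had 13.5 CPM (12.7 to 14.4) and DES epithelium 19.1 CPM (18.5 to 19.8), a ratio of 1.41 (1.32 to 1.52). Without CO cluster 12 and DES basal cells the ratio was 1.44, and as a mean over cells it was 1.27. Every DES cluster lay between 13.7 and 23.8 CPM, and the CO clusters between 10.5 and 28.1 CPM. In mesothelium the DES to CO ratio was 0.999 (0.924 to 1.08). In myeloid cells it was 0.34 (0.116 to 1.01) from 8 CO and 9 DES UMIs, and in lymphocytes 0.615 (0.275 to 1.28) from 27 and 11. Here and for Smo below, the myeloid group leaves out the cells that the authors named DES-Myeloid-Lyz2hi. Their Ptch1 was 47.5% of the DES mesothelial level, against 24.6% in the DES myeloid cells used. The summed mesothelial markers in myeloid cells were 20.2% of their mesothelial level in CO and 1.78% in DES, and their part was not tested.

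**Figure D2:**
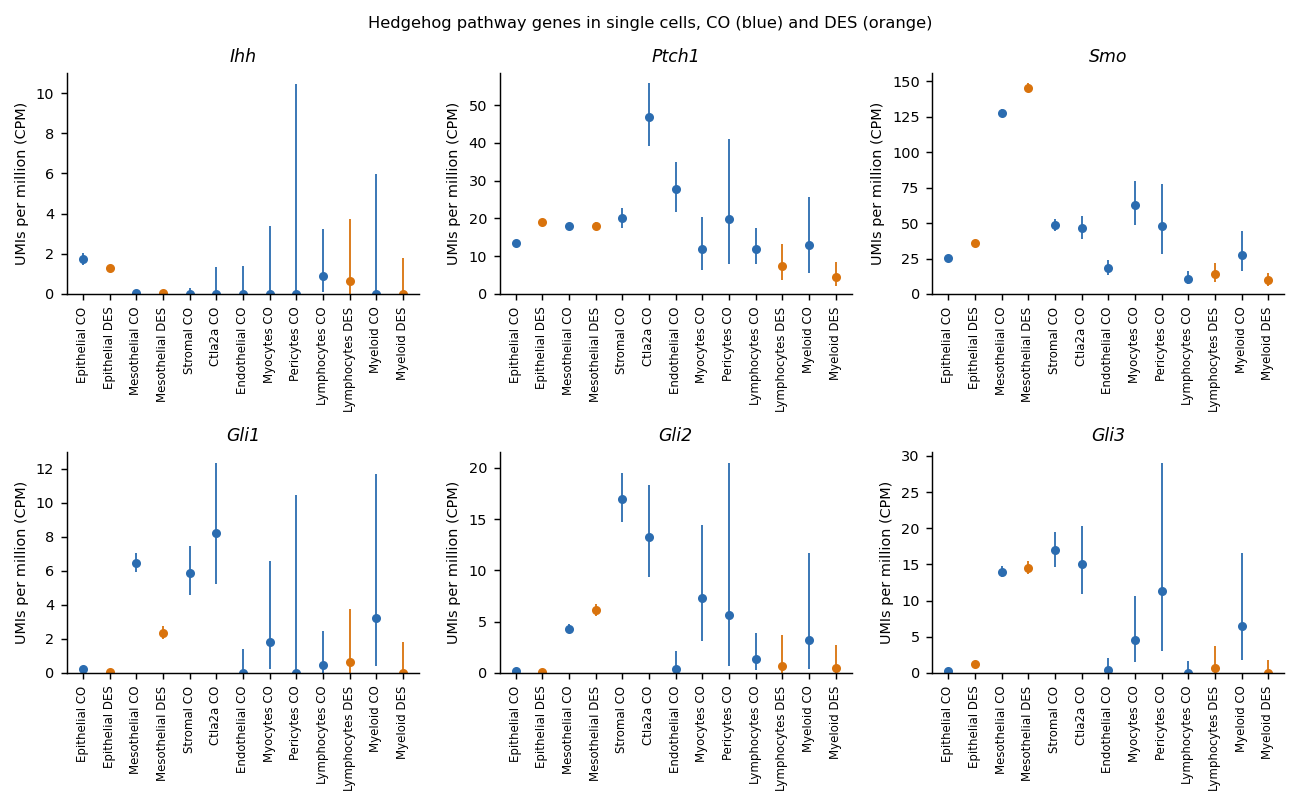
Levels of 6 Hedgehog pathway genes (CPM, linear axes, with 95% Poisson intervals) in annotated cell types of the CO (blue) and DES (orange) libraries, without the Stmn1-hi and DES-Myeloid-Lyz2hi cells. Ihh is highest in epithelium, Smo is highest in mesothelium at 128 and 146 CPM, Gli2 is highest in stromal cells at 17.0 CPM, and Gli1 in mesothelium is 6.46 CPM in CO and 2.37 CPM in DES.

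Smo, the transducer that PTCH1 holds in check, had its highest level in mesothelium, at 128 CPM (125 to 130) in CO and 146 CPM (143 to 148) in DES. The 22 CO cells that the authors named Stmn1-hi followed at 101.6 CPM (73.5 to 137). Their summed mesothelial markers (Msln, Upk3b and Lrrn4) stood at 81.1% of the mesothelial level. CO myocytes had 62.9 CPM, and CO stromal, pericyte and Ctla2a cells stood at 48.6, 48.2 and 46.2 CPM with overlapping intervals. Epithelium stood at 25.3 CPM in CO and 36.2 CPM in DES, a ratio of 1.43 (1.36 to 1.51). In myeloid cells the ratio was 0.355 (0.177 to 0.722), from 17 CO and 20 DES UMIs, and in lymphocytes 1.32 (0.699 to 2.48), from 24 and 21. Myeloid Smo was 21.6% of its mesothelial level in CO and 6.74% in DES. The summed mesothelial markers in myeloid cells were 20.2% and 1.78% of theirs. The part of mesothelial RNA in the myeloid ratio was not tested. CO cluster 12 again stood apart, at 50.4 CPM against 24.7 CPM in the other CO clusters, a ratio of 2.04 (1.63 to 2.52). Ptch1 in cluster 12 was 14.1 CPM against 13.5 CPM, a ratio of 1.05 (0.674 to 1.55). DES clusters ranged from 29.1 to 47.03 CPM.

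The 3 Gli genes were low in epithelium and present in mesenchymal and mesothelial cells. Gli1, the activator and target, was at 8.24 CPM (5.23 to 12.4) in Ctla2a cells, 6.46 CPM (5.93 to 7.03) in CO mesothelium and 5.88 CPM (4.57 to 7.44) in stromal cells, with overlapping intervals. CO epithelium stood at 0.254 CPM, and the stromal to epithelial ratio was 23.2 (13.9 to 40.2). DES epithelium held 5 Gli1 UMIs against 20 in CO, a DES to CO ratio of 0.112 (0.0328 to 0.307). These levels were 3.93% of the mesothelial level in CO and 1.198% in DES, and the summed mesothelial markers in epithelium were 1.86% and 0.945% of theirs. Gli2 was 17.0 CPM (14.7 to 19.5) in stromal cells and 0.165 CPM in CO epithelium, a ratio of 103 (58.7 to 196). Gli3 was also 17.0 CPM in stromal cells and 0.292 CPM in CO epithelium, a ratio of 58.1 (37.6 to 93.8). Gli2 was lower in CO mesothelium than in stromal cells, at 4.28 CPM, with a stromal to mesothelial ratio of 3.96 (3.31 to 4.72), whereas for Gli3 this ratio was 1.21 (1.04 to 1.41). CO cluster 12 held 0 UMIs of Gli1, 0 of Gli2 and 1 of Gli3.

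Mesothelium allowed a side-by-side view of CO and DES. Gli1 was 6.46 CPM from 537 UMIs in CO and 2.37 CPM from 153 UMIs in DES, a ratio of 0.367 (0.304 to 0.439). The ratios were 0.999 for Ptch1, 1.14 for Smo, 1.43 (1.23 to 1.65) for Gli2 and 1.04 (0.951 to 1.13) for Gli3. The ligands were too shallow to place, with 9 CO and 2 DES UMIs of Dhh, a ratio of 0.286 (0.0301 to 1.38), and 6 CO and 3 DES UMIs of Ihh, a ratio of 0.643 (0.104 to 3.01). The median UMIs per mesothelial cell were 10436 in CO and 12329 in DES. Mesothelial identity was present in both libraries, with Msln at 660 and 956 CPM and Upk3b at 1005 and 899.99 CPM.

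DES basal cells held a large part of epithelial Gli3. Gli3 was 10.8 CPM (8.87 to 13.1) in 483 basal cells and 0.656 CPM (0.538 to 0.791) in the other DES epithelial cells, a ratio of 16.5 (12.5 to 21.8). Basal cells held 49.5% of DES epithelial Gli3 UMIs and 5.61% of all DES epithelial UMIs. Gli1 and Gli2 in the same cells came to 1 and 3 UMIs. Their Smo level was 37.5 CPM against 36.2 CPM elsewhere, a ratio of 1.04 (0.932 to 1.15), and Ptch1 was 13.9 CPM against 19.4 CPM, a ratio of 0.712 (0.596 to 0.845). Over all epithelium Gli3 was 0.292 CPM in CO and 1.23 CPM in DES, a ratio of 4.2 (2.73 to 6.77). The CO level was 2.08% of that in mesothelium, and the summed mesothelial markers in CO epithelium were 1.86% of theirs. In DES these shares were 8.43% and 0.945%, and the source of the Gli3 UMIs was not tested. Without basal cells and CO cluster 12 the DES to CO ratio was 2.3 (1.44 to 3.81). With only the 4608 DES cells that the authors placed in epithelial clusters, which held 80 Gli3 UMIs, it was 1.71 (1.05 to 2.88), a comparison also chosen after the values were seen.

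Hhip, the inhibitor that binds ligand at the cell surface, was nearly absent. Annotated cells held 2 UMIs in all, both in Ctla2a cells. In sections it was counted 5 and 14 times in CO A and CO B, against 1 and 0 times in DES, and in CO B 12 of the 14 lay in spot cluster 1. Muscle-rich spots held 0 of the 5 in CO A and 4 of the 14 in CO B. Spot cluster 1 of CO B had its highest mean marker score for muscle, at 1.00. Muscle markers summed to 13345 and 14168 CPM in the CO sections and 3077 and 3458 CPM in DES. Their part in the Hhip counts was not tested. The CO and DES levels did not overlap, but the Poisson intervals of CO A (0.130 to 0.933 CPM) and DES A (0.00278 to 0.611 CPM) did. Hhip did not pass the filter on low counts. Without that filter its edgeR adjusted p was 0.185, and it passed the filter but not the test without CO A, DES A or DES B (edgeR adjusted p 0.0837 to 0.652).

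Whole sections were then compared, with the section as the unit, in an edgeR quasi-likelihood fit over 14098 genes. In the order CO A, CO B, DES A and DES B, the sections held 12506177, 11032957, 9117099 and 9880021 UMIs over 1433, 1834, 1575 and 1357 spots. Per the study, CO B had a tissue fold and DES B resolved clusters less well, so values without either are given where they matter. Of the 8 members 5 passed the filter, and 0 of these 5 passed an adjusted p of 0.05, where 5.30% of all genes tested did. At an unadjusted p under 0.05 the count was 2 of 5 in edgeR, where 24.4% of all genes were under it. DESeq2 called 1 of 5, where it called 12.7% of all genes.

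Those 2 were Gli2 and Smo. Gli2 was 10.6 and 11.3 CPM in CO A and CO B and 5.70 and 4.86 CPM in DES A and DES B, so both DES sections lay below both CO sections. Its log2 fold change was -1.26 ± 0.24 (SE), with an edgeR adjusted p of 0.0582, and an adjusted p of 0.0228 in DESeq2. Without CO A or CO B the edgeR adjusted p was 0.0326 or 0.0381, and without DES A or DES B it was 0.341 or 0.406. The log2 fold change of Gli2 ran from -1.36 to -1.20 in these fits. In each fit without 1 section the lone section of its group is assumed to vary like the other group. Smo was 40.5 and 41.1 CPM in CO and 66.0 and 68.8 CPM in DES, again without overlap, with a log2 fold change of 0.52 ± 0.16 and an edgeR adjusted p of 0.133. With 2 sections a group, an exact permutation test of a single gene cannot go below p = 0.333. Groups without overlap, as for Gli2 and Smo, give that value. The share of all genes without overlap was not counted, here or for Hhip above and Smo in epithelium-rich spots below. A lack of overlap is thus given as a description only. Smooth muscle markers moved with Gli2: the 5 markers summed to 13345 and 14168 CPM in CO and 3077 and 3458 CPM in DES, and the 5 stroma markers to 2452 and 2453 CPM in CO and 1140.0 and 762 CPM in DES. Their part in the Gli2 difference was not tested. Basal and myeloid markers moved with Smo: the 3 basal markers summed to 3.36 and 160 CPM in CO and 9526 and 5644 CPM in DES, and the 4 myeloid markers to 199 and 453 CPM in CO and 1685 and 873 CPM in DES. Their part in the Smo difference was not tested. In sections, fewer cells of a type and less RNA per cell cannot be told apart.

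Ptch1, Gli1 and Gli3 overlapped between CO and DES sections. Ptch1 was 11.4 and 15.95 CPM in CO and 15.5 and 14.1 CPM in DES, with a log2 fold change of -0.09 (95% interval -0.71 to 0.53). This value is on TMM-scaled counts, and the plain CPM lie on average slightly higher in DES. Gli1 was 5.997 and 13.96 CPM in CO and 11.8 and 4.45 CPM in DES, so sections of the same group differed more than the groups. Its log2 fold change was -0.50 ± 0.60, and it became 0.19 without CO B. Gli3 was 3.84 and 5.80 CPM in CO and 3.95 and 5.47 CPM in DES, with a log2 fold change of -0.23 ± 0.38, which became 0.07 without CO B.

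**Figure D3:**
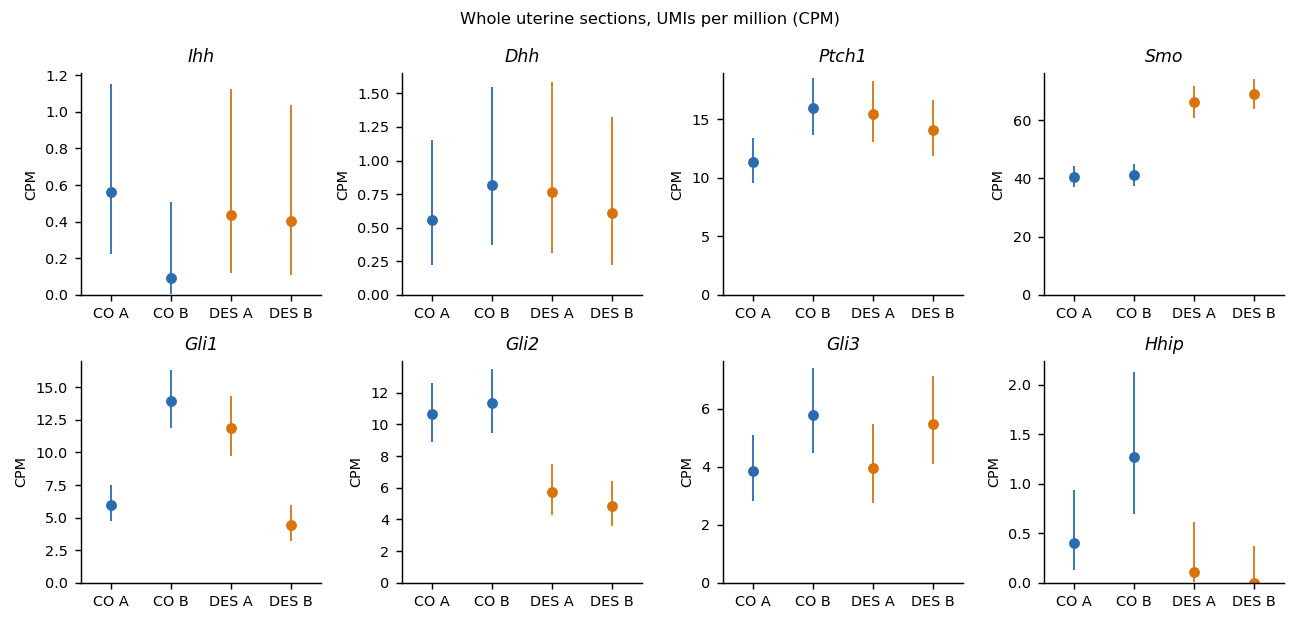
Level of each of the 8 genes in the 4 whole sections (CPM, linear axes, with 95% Poisson intervals). Gli2 is lower and Smo higher in both DES sections, whereas Ptch1, Gli1 and Gli3 overlap between CO (blue) and DES (orange).

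Stromal spots stand in for the stromal cells missing from the DES library. Spots of the stromal clusters named by the study (101, 188, 211 and 132 spots in CO A, CO B, DES A and DES B) were summed per section and 8914 genes were tested. Of 3 members tested 0 passed, where 1.47% of all genes did, and 0 had an unadjusted edgeR p under 0.05, where 13.4% of all genes did. DESeq2 also called 0, where it called 2.17% of all genes. Gli1 was 26.9 and 34.7 CPM in CO and 41.4 and 14.4 CPM in DES, with a log2 fold change of -0.09 (95% interval -1.16 to 0.99). Without CO B it was 0.16. Without DES B it was 0.27. Gli2 was 21.5 and 14.1 CPM in CO and 14.8 and 11.5 CPM in DES, and Smo was 39.4 and 46.6 CPM in CO and 92.6 and 54.8 CPM in DES. The DES values rest on 4 to 94 UMIs. These spots were not pure, since the 3 basal markers summed to 7058 and 1998 CPM in the DES stromal spots, against 0 and 89.97 CPM in CO, and the muscle markers to 8369 CPM in DES B. The part of these cells in the values was not tested.

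Epithelium-rich spots, the top 15% of each section by a marker score without any member, were also compared. Of 3 members tested 0 passed, where 5.48% of 11497 genes did, and 1 of 3, Smo, had an unadjusted edgeR p under 0.05, where 24.1% of all genes did. DESeq2 also called 0, where it called 9.25% of all genes. Smo was 32.0 and 24.8 CPM in CO and 56.7 and 63.1 CPM in DES, without overlap, at a log2 fold change of 0.78 ± 0.24 with an edgeR adjusted p of 0.125. Without CO A it was 0.99 with an edgeR adjusted p of 0.0219. Gli3 was 1.84 and 0.629 CPM in CO and 4.14 and 4.85 CPM in DES, from 7, 2, 10 and 12 UMIs, at a log2 fold change of 1.51 ± 0.66 with an edgeR adjusted p of 0.242. Without CO A it was 2.49 and without CO B 0.96. Basal markers summed to 8815 and 5631 CPM in these DES spots and to 3.68 and 125 CPM in CO. Myeloid markers summed to 2378 and 566 CPM in the same DES spots and to 96.9 and 180 CPM in CO. The part of basal and myeloid cells in the Smo and Gli3 values was not tested. Ptch1 was 14.97 and 22.95 CPM in CO and 19.0 and 16.6 CPM in DES, so the groups overlapped.

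Within sections, Gli1 and Gli2 were lower in epithelium-rich than in stroma-rich spots. Epithelium-rich and stroma-rich spots were compared in 1 edgeR fit over 11821 genes with section as a term. The fit also held the muscle-rich spots of every section. Its standard errors and p-values rest on how class differences varied between sections of the same treatment, pooled over CO and DES. A CO value can thus change when a DES section is left out, and the reverse. In CO 3 of 5 members tested were lower in epithelium-rich spots and 0 were higher, where 40.1% of all genes tested passed in either direction, 21.6% as lower and 18.5% as higher. The filter kept genes with enough counts in any spot class. Gli1, Gli2 and Gli3 entered through stroma-rich or muscle-rich spots, and the epithelial ligand Ihh did not enter. The direction of this count, and of that in DES, was thus partly set by the filter. Gli1 was 1.58 and 3.14 CPM in the epithelium-rich spots of CO A and CO B and 15.6 and 29.0 CPM in the stroma-rich spots, a log2 fold change of -3.13 ± 0.46 with an edgeR adjusted p of 0.000126. Gli2 was 2.63 and 1.57 CPM against 20.5 and 17.9 CPM, a log2 fold change of -3.06 ± 0.53 with an edgeR adjusted p of 0.000426. Gli3 was 1.84 and 0.629 CPM against 5.75 and 8.54 CPM, a log2 fold change of -2.34 ± 0.65 with an edgeR adjusted p of 0.0106. This Gli3 call was lost without CO B, at a log2 fold change of -1.48 with an edgeR adjusted p of 0.266.

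Muscle markers summed to 7622 and 7924 CPM in the stroma-rich spots of CO A and CO B and to 255 and 211 CPM in the epithelium-rich spots, and their part in these values was not tested. Gli2 stood at 23.4 and 21.7 CPM in the muscle-rich spots of these sections, slightly above its stroma-rich levels.

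In DES sections 2 of 5 members were lower in epithelium-rich spots, where 19.0% of all genes tested passed, 11.3% as lower and 7.73% as higher. Gli1 was 5.79 and 1.62 CPM in epithelium-rich and 22.8 and 16.6 CPM in stroma-rich spots of DES A and DES B, a log2 fold change of -2.47 ± 0.49 with an edgeR adjusted p of 0.00272. Gli2 was 3.72 and 0.809 CPM against 16.6 and 5.10 CPM, a log2 fold change of -2.29 ± 0.65 with an edgeR adjusted p of 0.0238. Without DES B the edgeR adjusted p was 0.0907 for Gli1 and 0.0735 for Gli2, and without DES A it was 0.239 for Gli2. The log2 fold changes in these fits were -2.05 for Gli1 and -2.22 and -2.60 for Gli2. The Gli2 call was also lost with spot classes of 10% and 25%, at edgeR adjusted p of 0.122 and 0.0911. Gli3 was 4.14 and 4.85 CPM in epithelium-rich spots and 5.18 and 6.37 CPM in stroma-rich spots, a log2 fold change of -0.41 ± 0.64 with an edgeR adjusted p of 0.707. Muscle markers summed to 1887 and 2196 CPM in the stroma-rich spots of DES A and DES B and to 228 and 283 CPM in the epithelium-rich spots, and their part was not tested. The muscle-rich spots of the same sections had Gli2 levels of 9.13 and 15.4 CPM, from 6 and 13 UMIs, the second of which was above its stroma-rich level of 5.10 CPM.

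**Figure D4:**
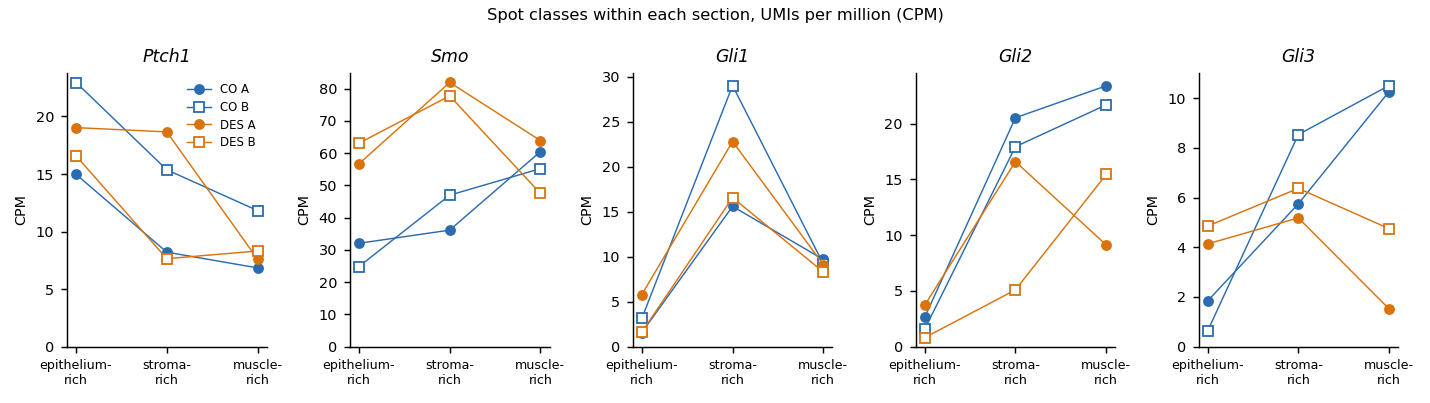
Levels of 5 genes (CPM, linear axes) in epithelium-rich, stroma-rich and muscle-rich spots of each section, with lines joining the classes of 1 section. Gli1 and Gli2 are higher in stroma-rich than in epithelium-rich spots in all 4 sections, and Ptch1 is not.

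In spots the receptor did not follow Gli1 and Gli2. In CO single cells Ptch1 was higher in stromal than in epithelial cells, at a ratio of 1.48 (1.28 to 1.71). Ptch1 was higher in epithelium-rich than in stroma-rich spots in 4 of 4 sections, with ratios of 1.82, 1.49, 1.02 and 2.17 in CO A, CO B, DES A and DES B, but it did not pass with the top 15% of spots. Its log2 fold change was 0.78 ± 0.35 in CO with an edgeR adjusted p of 0.0891, and 0.38 ± 0.37 in DES with an edgeR adjusted p of 0.517. With the top 25% of spots the CO value was 0.93 with an edgeR adjusted p of 0.0131. Smo was lower in epithelium-rich spots in 4 of 4 sections, with ratios from 0.529 to 0.887, and did not pass in CO or DES. In CO the log2 fold change of Smo was -0.46 with all sections. Without 1 section it ran from -0.87, without CO A, to -0.038. With the top 10% of spots it passed in CO, at -0.68 with an edgeR adjusted p of 0.0489. In DES it passed without CO B, at -0.54 with an edgeR adjusted p of 0.0377.

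The difference in this pattern between DES and CO was tested as an interaction, and 0 of 5 members passed, where 1.57% of all genes did. DESeq2 also called 0, against 1.13% of all genes. At an unadjusted edgeR p under 0.05 the count was 1 of 5, where 12.8% of all genes were under it. This was Gli3, with a log2 difference of 1.93 ± 0.89 and an edgeR adjusted p of 0.383. Without CO A it was 3.16 and without CO B 0.99. The intervals for Gli1 (-0.82 to 2.15) and Gli2 (-1.13 to 2.66) were wide.

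Of 37 other genes of the pathway and of the uterine progesterone axis, 28 were tested in whole sections, 2 rose and 2 fell in DES, where 5.30% of all genes passed. All 4 calls were lost without DES A and without DES B, where 0 of 32 listed genes tested passed in edgeR and 0.0955% and 0.0204% of all genes did. The log2 fold changes of the 4 genes in these fits were -2.87 and -2.28 for Mycn, -2.79 and -2.36 for Hand2, 1.92 and 1.91 for Wnt4, and 1.56 and 1.58 for Ccnd2. In DESeq2 with all sections 2 of 28 rose and 4 fell, where it called 12.7% of all genes. Mycn, a proliferation gene regulated by Hedgehog in other tissues, fell, with 60.3 and 56.3 CPM in CO and 14.4 and 9.11 CPM in DES, at a log2 fold change of -2.53 ± 0.25 and an edgeR adjusted p of 0.0212. It was listed as a mesenchymal target, but it was higher in epithelium-rich than in stroma-rich spots, at 1.77 ± 0.31 in CO and 2.16 ± 0.59 in DES with edgeR adjusted p of 0.000495 and 0.0206. Hand2, a stromal factor of the progesterone response, fell, with 24.2 and 28.7 CPM in CO and 6.14 and 4.35 CPM in DES, at a log2 fold change of -2.54 ± 0.25 and an edgeR adjusted p of 0.0212. The stroma markers were lower in the same sections, and in stromal spots Hand2 did not pass, at -1.23 ± 0.48 with an edgeR adjusted p of 0.306. Wnt4 rose from 28.9 and 19.7 CPM to 109 and 105 CPM, at a log2 fold change of 1.93 ± 0.25 and an edgeR adjusted p of 0.0284. The cyclin gene Ccnd2 rose from 11.8 and 7.70 CPM to 35.2 and 33.0 CPM, at a log2 fold change of 1.59 ± 0.28 and an edgeR adjusted p of 0.0466. With section letter as a block Ccnd2 did not pass, at 1.62 with an edgeR adjusted p of 0.0572. The basal and myeloid markers were higher in the same sections, and their part in the rise of Wnt4 and Ccnd2 was not tested. In stromal spots 1 of 19 tested rose (Wnt4) and 1 fell (Mycn), where 1.47% of all genes passed, and both calls were lost without CO B, DES A or DES B, where 1.45%, 0.460% and 0.830% of all genes passed. In these fits the log2 fold changes were 1.69, 1.97 and 2.05 for Wnt4 and -3.00, -2.45 and -3.17 for Mycn. With all sections they were 2.02 and -2.93. The Mycn call was also lost in DESeq2 (adjusted p 0.0946) and in edgeR on stroma-rich spots by marker score (adjusted p 0.0759), while Wnt4 passed in both. In epithelium-rich spots 3 of 21 rose (Boc, Pgr and Wnt4) and 2 fell (Mycn and Hand2), where 5.48% of all genes passed. Of these 5, Mycn alone still passed without DES A, and 0 passed without DES B, where 1.39% and 1.27% of all genes did. With the top 10% of spots Mycn, Hand2 and Wnt4 did not pass (edgeR adjusted p 0.0707, 0.0503 and 0.0505).

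By list, in whole sections, 0 of 3 ligand release genes tested, 0 of 4 co-receptors and 0 of 10 transduction genes passed, with median log2 fold changes of -0.27, -0.51 and -0.18. For the 4 mesenchymal targets tested (1 rose, 1 fell) and the 7 progesterone axis genes (1 rose, 1 fell) the medians were 0.19 and -0.40. Over all genes tested it was -0.01. Between epithelium-rich and stroma-rich spots in CO, 15 of 25 were lower in epithelium-rich spots and 2 were higher, where 21.6% of all genes passed as lower and 18.5% as higher. With no filter beyond 1 count, 13 of 35 were lower and 2 higher, where 14.1% and 13.9% of all genes were. The list was chosen by name and holds mesenchymal targets and the stromal factor Hand2. The direction of this count, and of that in DES, was thus partly set by the list and the filter. Without 1 section the counts lower were 10 to 13, where 15.3% to 20.7% of all genes were lower, and DESeq2 called 11 lower, where it called 17.4% of all genes. The 3 co-receptors tested, Cdon, Boc and Gas1, were among the 15. Gas1, which helps cells bind ligand, was 8.14 and 9.43 CPM in epithelium-rich and 155 and 176 CPM in stroma-rich CO spots, a log2 fold change of -4.15 ± 0.21 with an edgeR adjusted p of 1.64e-08. In DES 7 of 25 were lower and 1 was higher, where 11.3% and 7.73% of all genes were, and without DES A or DES B the counts lower were 3 and 4, where 4.28% and 4.88% of all genes were, and 0 were higher, where 0.265% and 0.485% were. In the interaction test 0 of 25 passed, where 1.57% of all genes did. Without CO A 3 of 24 were higher and 1 was lower, where 5.63% of all genes passed. The count was 1 higher of 26 without CO B, 1 of 35 without the filter and 1 of 27 with the top 25% of spots, where 1.54%, 2.99% and 2.91% of all genes passed. Shh, another Hedgehog ligand, held 0 UMIs in all 4 sections.

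The genes most like Ihh over 30 epithelial clusters of at least 30 cells were Gstm7, Fxr1, Fkbp4, Trpm1 and Crybb1, with Pearson r of log2(CPM + 1) from 0.771 to 0.861. Each of these was highest in CO cluster 12, so the values rest largely on that cluster. Over 14 groups of cell type and library, those most like Gli1 were Zc2hc1c, Abat, Gxylt2, Nlgn1 and RP23-135A22.4, with r from 0.915 to 0.939, and those most like Ptch1 were Zfp280d, Aldh6a1, Tmtc2, Smad5 and RP23-402K24.2, with r from 0.909 to 0.931. Among the members, Gli1 had r of 0.805 with Gli2, 0.794 with Gli3 and 0.469 with Ptch1 over these groups. The points share libraries and differ in depth, and no p is given.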

How the data were processed

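Single-cell libraries (10x 3′ v3 chemistry) and Visium sections were deposited as tables of UMI counts. Per the labels, the authors used bcl2fastq 2.20.0.422, Cell Ranger 3.0.1 and Space Ranger 1.2.2 with mm10, removed doublets and assigned cell types and clusters. Here, counts were summed per group and divided by the group's total (CPM). The main test was the quasi-likelihood test of edgeR 4.0.16 on section sums (TMM, filterByExpr, Benjamini-Hochberg, adjusted p of at most 0.05 over all genes tested), and DESeq2 1.42.0 was an alternative. Standard errors are the log2 fold change over the root of F. Spot classes were the top 15% of spots by marker scores. Cells were thinned to 3000 UMIs for shares, with Clopper-Pearson 95% intervals. A count of 0 was set at a floor of 3 counts where a ratio was formed. Of the cells in the authors' metadata, 350 had no counts and were not used. The edgeR step was tested on simulated counts of 14106 genes for whole sections, where 197 of 200 genes changed 4-fold were recovered, with 8 false calls. The simulation gave every gene the same spread and changed only well-counted genes. It therefore does not show how often changes in the real sections, or in low-count genes such as Ihh and Hhip, are found. The members, gene lists and comparisons were chosen with earlier results of these data known. The rule named the 8 members, the listed pathway genes where they passed a test or gave a level for comparison, and the 5 most similar genes for Ihh, Gli1 and Ptch1. Replicates are sections of separate mice. The section letters do not mark paired mice.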

Additional observations from a re-analysis of the deposited data

Results flagged for a closer look

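Cells without a cell type from the authors, which enter no comparison above, also held Ihh. The 20134 such CO cells held 75 Ihh UMIs (0.442 CPM, 0.348 to 0.554) and the 6611 such DES cells held 25 (0.591 CPM, 0.382 to 0.872), both above the limit that a count of 0 allows. These levels were 25.4% and 45.8% of the epithelial level of the same library, and the summed epithelial markers stood at 39.3% and 56.7% of theirs. Hhip held 5 UMIs in the CO cells of this kind (0.0295 CPM), more than the 2 UMIs in all annotated cells.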

How the results depend on the processing

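Of the members' fold changes recomputed under alternatives, 199 kept their direction and their side of the threshold, 8 passed it, 6 lost it and 15 turned direction. The cause was not tested. In whole sections, DESeq2 called 1791 genes against 747 and 1 member against 0, and leaving out 1 section gave 3 to 2819 genes and 0 to 1 members. In stromal spots the count of 131 genes became 714 without the filter, 249 in stroma-rich spots and 40 to 357 without 1 section. In epithelium-rich spots 630 became 1064 in DESeq2, 1064 without the filter and 156 to 2338 without 1 section, with 0 to 1 members. Between epithelium-rich and stroma-rich spots of DES, 2251 became 1381 in DESeq2 and 566 to 3199 without 1 section, and the 2 members called became 1 with the top 10% or 25% of spots and 0 to 3 without 1 section. In CO the counts without 1 section were 3385 to 4509 genes and 2 to 4 members. For the difference, 185 became 560 without the filter, 371 with the top 25% and 12 to 675 without 1 section.

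Section letters were shared by CO and DES but do not mark shared mice, and same-letter deviations correlated at -0.0311, 0.0866 and 0.0257 in whole sections, stromal and epithelium-rich spots. With the replicate block, 527, 453 and 1127 genes were called there, and Gli2 in whole sections had an edgeR adjusted p of 0.107.

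Values that turned without 1 section are given as log2 fold changes from lowest to highest. In whole sections they were -0.30 to 0.14 for Ptch1, -1.33 to 0.19 for Gli1 (0.0099 without DES B) and -0.53 to 0.068 for Gli3 (0.0027 without DES A). In stromal spots Gli1 was -1.06 to 0.27 (0.16 without CO B). Between spot classes Ptch1 in DES was -0.060 to 1.05. The difference was -0.84 to 0.30 for Ptch1, -0.51 to 0.41 for Smo (-0.15 without DES B) and -0.19 to 1.08 for Gli1. For Smo it was also -0.046 in DESeq2, -0.051 with its size factors and -0.0076 without the filter. In single cells the epithelial Ihh ratio of DES to CO turned to 2.03 without CO cluster 12 and DES basal cells, and to 1.85 with only DES cells in epithelial clusters. The basal ratio of Gli3 was 11.2 as a mean over cells. Ihh, Dhh and Hhip were too shallow in sections to pass the filter on low counts with all 4 sections.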
